A study of Mus musculus with 2 samples.

Results

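Laminins are the cross-shaped proteins on which basement membranes are built, and the 10 genes described here encode laminin chains and the proteins that tie laminin into the rest of the sheet. They were taken as a fixed list and comprised 6 laminin chain genes (Lama2, Lama3, Lama4, Lama5, Lamb2 and Lamc1), the nidogens Nid1 and Nid2, and the heparan sulfate proteoglycans perlecan (Hspg2) and agrin (Agrn). All 10 were found among the 20211 gene symbols of the study, each on a single row. The mean RPKM of 9 of them was 1 or more, as was that of 10068 symbols in all. RPKM is a read number scaled to transcript length and sequencing depth, so that levels of different genes can be set side by side within a library.

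The study sequenced RNA of primary perivascular cells (PCs, pericytes) grown from the aorta of C57BL/6 mice. One group was wild type (WT, 1 library) and the other came from Kai1 knockout mice (Kai1-/-, labelled Kai1 KO, 1 library). Kai1 is another name for Cd82, a tetraspanin of the cell surface. Neither group received a treatment. The study's methods describe the purchased C57BL/6 mice as adults of either sex, without tying an age or a sex to these cultures. Passage, the number of animals behind a culture and the way the Kai1 knockout allele was made are not given in the sources used here, and the serum content of the medium differs between the labels and the study's methods. With 1 library per genotype there was no replicate check and no p-value was computed. Each difference below compares these libraries, and genotype cannot be told apart from animal, culture or library preparation.

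Each laminin molecule holds 1 alpha, 1 beta and 1 gamma chain. Cells secrete the trimers, which polymerise at the cell surface where integrins and dystroglycan hold them. Nidogens then bridge laminin to type IV collagen and perlecan, and agrin links laminin to dystroglycan. In vessels the basement membrane lies between endothelial and mural cells, and both cell types contribute chains to it.

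The nidogens dock on a short loop of the gamma chain encoded by Lamc1. The coding sequence of this loop is shown because the balance of Nid1 and Lamc1 differed between the libraries, beside the stretch of Lamc3, another gamma chain gene, that aligns with it. Capitals mark the 7 codons of the known nidogen-binding motif or the codons aligned with them, and 9 bases are shown on each side. Both were read from the GENCODE M1 transcripts and matched the genome build NCBI37 (mm9) base for base.
Lamc1, chr1:155090482-155090520, minus strand, exon 14: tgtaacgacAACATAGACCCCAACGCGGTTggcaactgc
Lamc3, chr2:31776109-31776147, plus strand, exon 14: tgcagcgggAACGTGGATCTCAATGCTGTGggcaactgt
The Lamc1 chain held the motif once, and the Lamc3 chain held 0 exact copies. Of the 7 encoded residues, 5 were the same in Lamc3 as in Lamc1. Over all aligned residues, 44.2% of the Lamc3 chain was identical to Lamc1. Binding was not measured here, and a count of identical residues does not give its strength.

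Cd82, the targeted gene, was at 12.8 RPKM in WT and at 2.62 in Kai1-/- PCs, so the labels and the target were in the same direction. Some Cd82 signal thus remained in the library labelled Kai1 KO, and its source was not examined. The steps between low RPKM values put the depth at about 28900000 reads for WT PCs and 26600000 reads for Kai1-/- PCs. The labels name Cufflinks, and whether the values are fragment counts or carry a scaling between the libraries is not given in the sources used here, so these depths and the counting intervals made from them are approximate. The RPKM values summed to 884463 and 1238193, with 37.4% and 48.7% of the sum in ribosomal protein genes. The Y-linked genes Ddx3y, Eif2s3y, Kdm5d and Uty were at an RPKM from 0.479 to 6.56 in WT and listed at 0 in Kai1-/- PCs, so the sex of the cells may differ as well and cannot be told apart from genotype.

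Across the 10 genes, the libraries differed most in Lama4, which was 3.44-fold higher in Kai1-/- PCs, and in Nid1 and Lamb2, which were at 47.9% and 50.1% of their WT levels. Lamc1, Lama5 and Hspg2 were nearly level in the values as deposited. The levels spanned a wide range. Nid1 was the most abundant in both libraries, above 95.8% of all symbols in WT PCs and 92.1% in Kai1-/- PCs, and Lama3 was the least abundant. Between neighbours in this order, the counting intervals overlapped only for Lama5 and Lama2 in WT PCs and for Lama2 and Agrn in Kai1-/- PCs. These 95% intervals were taken from the estimated reads and cover counting error only, without the variation between cultures and without PCR duplicates.

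**Figure D1:**
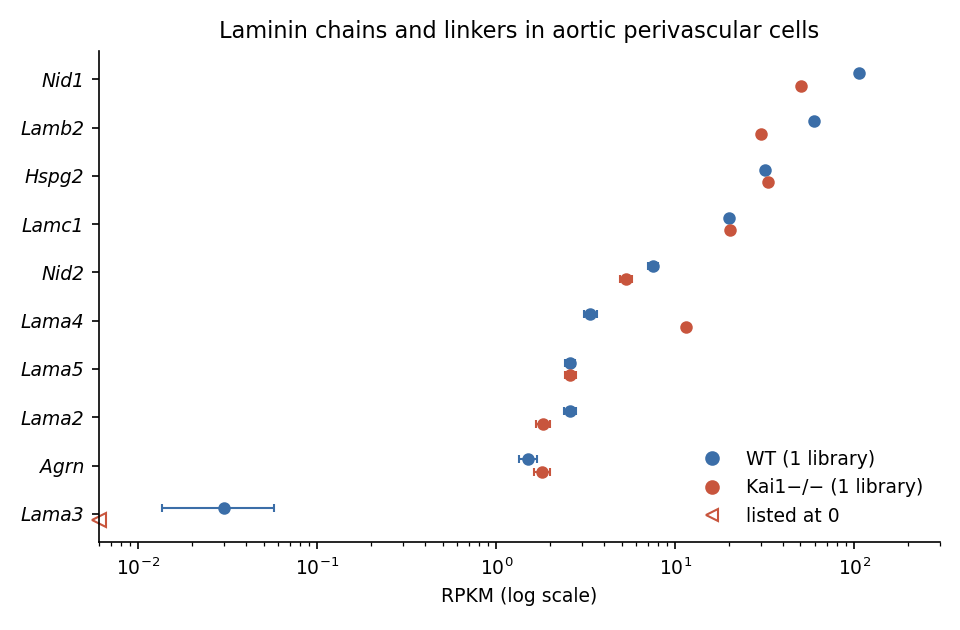
RPKM of the 10 genes on a log scale in WT and Kai1-/- PCs, 1 library each, with bars for the 95% counting interval. Lama4 sits at 3.35 in WT and 11.5 in Kai1-/- PCs, Nid1 at 106 and 50.6, and the open triangle marks Lama3, listed at 0 in the Kai1-/- library.

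Lama4 encodes the alpha chain that is characteristic of vascular basement membranes, made by endothelial and mural cells, and it lacks the amino-terminal short arm of longer alpha chains. In mm9 the gene lies at chr10:38685321-38829994 (plus strand). Its RPKM was 3.35 in WT against 11.5 in Kai1-/- PCs, from about 567 and 1792 reads. On the scale of log2(RPKM + 0.1), used throughout for ratios of Kai1-/- to WT, this was a log2 ratio of 1.75 with a counting interval from 1.61 to 1.89. Of all genes kept, 98.5% had a lower ratio. Lama4 moved from the sixth place among the 10 genes to the fifth, above Nid2.

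Lama2 encodes the main alpha chain of muscle and Schwann cell basement membranes, whose loss causes a congenital muscular dystrophy. In mm9 the gene lies at chr10:26701094-27336748 (minus strand). Its RPKM was 2.58 in WT and 1.82 in Kai1-/- PCs, for a log2 ratio of -0.49 (counting interval -0.65 to -0.32), which is less than a 2-fold difference. Lama5 (chr2:179911078-179960564, minus strand) encodes a broadly expressed alpha chain of epithelial and endothelial basement membranes. Its RPKM was 2.58 and 2.59, a log2 ratio of 0.00 as deposited (interval -0.14 to 0.14), and below 0 under each of 5 other scalings (to Gapdh, to equal RPKM sums with or without ribosomal protein genes, to an equal upper quartile and to a median log2 ratio of 0). Lama2 and Lama5 thus stood at the same level in WT PCs, and Lama5 was the higher of the pair in Kai1-/- PCs.

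Lama3 encodes an alpha chain of epithelial basement membranes, where it pairs with the Lamb3 chain. It was at an RPKM of 0.0299 in WT PCs, about 9 reads by the estimate, and was listed at 0 in Kai1-/- PCs, where 3 reads would be an RPKM of 0.0111. No ratio is given for it. Its partner Lamb3 was measured at a higher level, with an RPKM of 0.981 in WT and 0.243 in Kai1-/- PCs. The remaining alpha chain gene, Lama1, which is typical of early embryos, was at 0.0217 in WT PCs and listed at 0 in Kai1-/- PCs.

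Lamb2 encodes the beta chain of neuromuscular junctions, the kidney filter and vessel walls. In mm9 the gene lies at chr9:108382193-108392861 (plus strand). Its RPKM was 59.9 in WT against 30.0 in Kai1-/- PCs, from about 9386 and 4330 reads. The log2 ratio was -0.99 (counting interval -1.05 to -0.94), just short of a 2-fold difference as deposited and past it under each of the 5 other scalings, from -1.08 to -1.49. Lamb1, the other main beta chain gene, had an RPKM of 21.5 and 21.8 as deposited. The ratio of Lamb2 to Lamb1, which no scaling of the libraries changes, went from 2.79 in WT to 1.38 in Kai1-/- PCs, that is to 0.494 of the WT ratio (counting interval 0.465 to 0.524). In the deposited values Lamb1 was level and Lamb2 lower, and Lamb2 was still the more abundant of the pair.

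Lamc1 (chr1:155066052-155179916, minus strand) encodes the gamma chain of most laminins and carries the nidogen loop shown above. Its RPKM was 19.9 in WT and 20.1 in Kai1-/- PCs, for a log2 ratio of 0.01 as deposited (interval -0.05 to 0.08) and below 0 under each of the 5 other scalings, down to -0.48. Lamc3, a rarer gamma chain, rested on about 16.4 reads in WT and 5.91 in Kai1-/- PCs by the estimate, against 4271 and 3967 for Lamc1.

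The make-up of the alpha chains differed between the libraries. In the WT library Lama4 was 39.1% of the summed RPKM of the alpha chains, with Lama2 at 30.1% and Lama5 at 30.1%. In the Kai1-/- library Lama4 was 72.3%, with Lama5 at 16.3% and Lama2 at 11.4%. The summed alpha chains were at an RPKM of 8.57 in WT and 15.9 in Kai1-/- PCs, against 82.3 and 52.0 for the beta chains. The ratio of alpha chains to Lamc1 was 0.430 in WT and 0.793 in Kai1-/- PCs, and that of alpha to beta chains 0.104 and 0.306. By RPKM, alpha chain mRNA was thus less abundant than beta chain mRNA or Lamc1 in both libraries. RPKM takes coverage to be even along transcripts of unlike length, such as 11388 bases for Lama5 and 5624 for Lamb2. Whether coverage was even was not tested. Relative to Lamc1, Lama4 was 0.168 in WT and 0.573 in Kai1-/- PCs, a 3.40-fold difference (counting interval 3.07 to 3.78). Shares and ratios within a library do not depend on how the libraries are scaled. Levels of mRNA do not give the number of trimers, since chains can be translated and secreted at different rates.

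**Figure D2:**
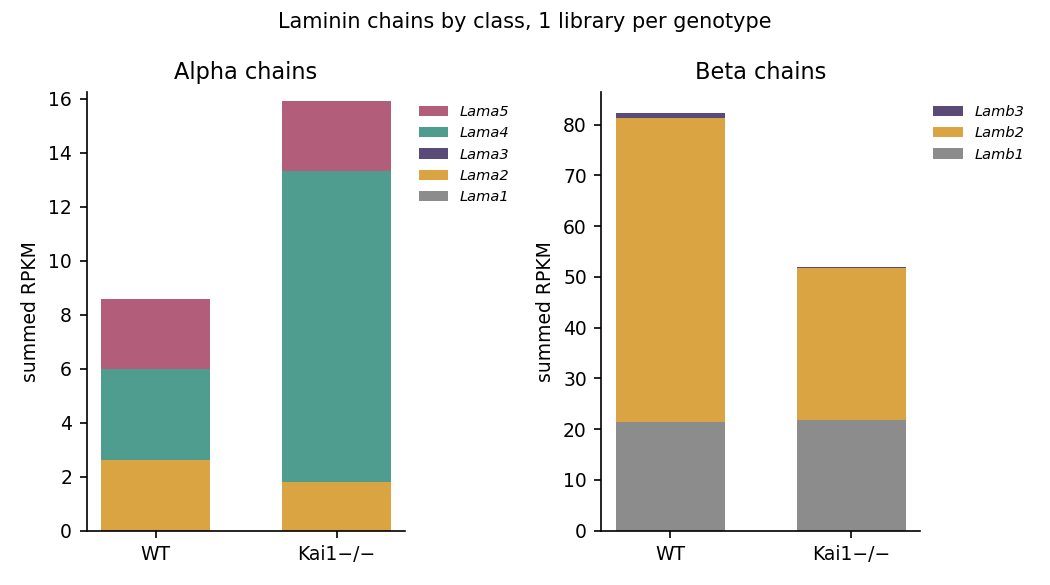
Summed RPKM of the laminin alpha and beta chains in 1 WT and 1 Kai1-/- library, stacked by gene, each panel with its own axis starting at 0. Lama4 is 39.1% of the alpha chains in WT and 72.3% in Kai1-/- PCs, and Lamb2 is 72.7% and 57.7% of the beta chains.

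Among the linkers, Nid1 was lower in Kai1-/- PCs, Nid2 less so, and the proteoglycans differed little. Nid1 (chr13:13529869-13604542, plus strand) encodes the nidogen that binds the Lamc1 chain with high affinity. Its RPKM was 106 in WT against 50.6 in Kai1-/- PCs, from about 17862 and 7867 reads. The log2 ratio was -1.06 (counting interval -1.10 to -1.02), past the 2-fold line by a small margin, and 7.19% of all genes kept had a lower ratio. Relative to Lamc1, Nid1 was 5.31 in WT and 2.52 in Kai1-/- PCs, or 0.474 of the WT ratio (counting interval 0.451 to 0.499).

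Nid2 encodes the related nidogen that can stand in for Nid1 in mice (chr14:20570479-20631009, plus strand). Its RPKM was 7.52 in WT and 5.30 in Kai1-/- PCs, for a log2 ratio of -0.50 (counting interval -0.64 to -0.35). Of its exonic bases, 7.90% are shared with a gene on the opposite strand, 2700060E02Rik, and whether reads were counted by strand is not given in the sources used here. None of the other 9 genes shared exonic bases with another gene of the annotation. Nid1 was 14.1 times as abundant as Nid2 in WT and 9.54 times in Kai1-/- PCs, and it made up 93.4% and 90.5% of the nidogen RPKM.

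Hspg2 (chr4:137024634-137126545, plus strand) encodes perlecan, a very large proteoglycan that binds nidogen and growth factors. Its RPKM was 31.9 in WT and 32.8 in Kai1-/- PCs, for a log2 ratio of 0.04 as deposited (counting interval 0.01 to 0.08) and below 0 under each of the 5 other scalings. Relative to Lamc1 it was 1.60 and 1.63, a difference of 1.02-fold (counting interval 0.971 to 1.07). Agrn (chr4:155539399-155571536, minus strand) encodes agrin, the organiser of the neuromuscular junction. Its RPKM was 1.50 and 1.80, a log2 ratio of 0.25 (interval 0.03 to 0.47), which turned below 0 under 2 of the 5 other scalings. Agrin mRNA was thus a small fraction of perlecan mRNA in both libraries, at 4.71% and 5.49% of its RPKM. The agrin receptor Lrp4 was at 0.273 and 0.430, and its partner Musk was listed at 0 in both.

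The summed RPKM of the 10 genes was 235 in WT and 157 in Kai1-/- PCs. In the deposited values Nid1 and Lamb2 accounted for the deficit, since their sum went from 166 to 80.6 while the other 8 genes together went from 69.3 to 75.9 as deposited. Under the 5 other scalings the sum of these 8 genes in Kai1-/- PCs lay between 53.7 and 71.7, below the WT sum in 3 of them. Of the 9 genes kept, 1 (Nid1, 11.1%) was lower by more than 2-fold, 1 (Lama4, 11.1%) was higher by more than 2-fold, and 7 lay within 2-fold. Over all 10068 genes kept, 7.81% were lower by more than 2-fold and 7.98% were higher by as much, so the counts are near this background. That split of 786 lower and 803 higher genes depends on the scaling, and was 1816 and 286 with equal RPKM sums. These genes have long transcripts, from 4884 bases upward. Among the 1769 genes kept with a longest transcript of at least this length, 7.01% were lower and 4.69% higher. This length limit was chosen after the data were seen. The median log2 ratio was 0.00 for the 9 genes, 0.08 for all genes kept and -0.04 for the long ones. Relative to the median of all genes kept, Lama4 was at 1.67, Agrn at 0.17, Hspg2 at -0.04, Lamc1 at -0.07, Lama5 at -0.08, Lama2 at -0.57, Nid2 at -0.58, Lamb2 at -1.08 and Nid1 at -1.14.

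**Figure D3:**
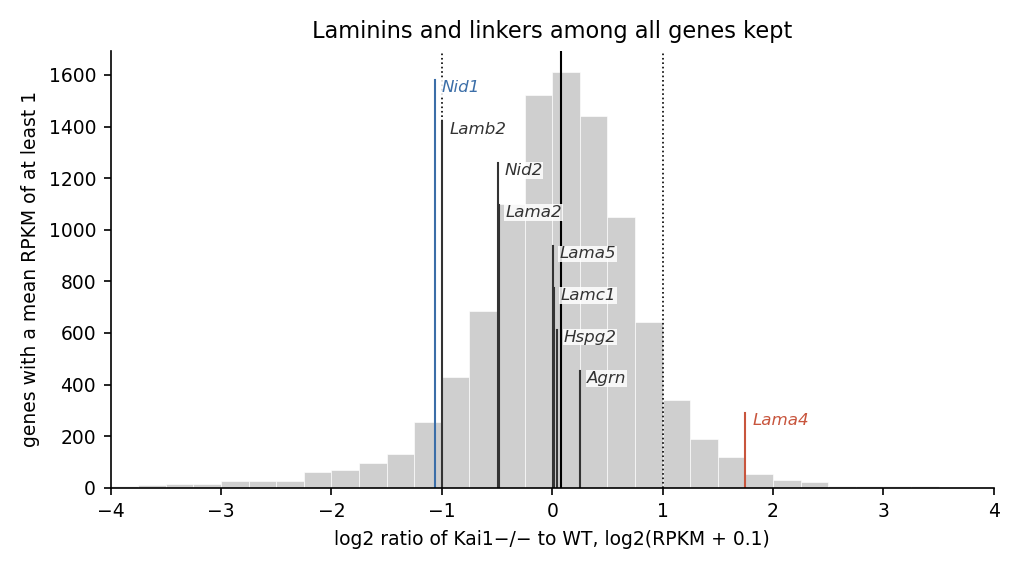
Number of kept genes (mean RPKM of 1 or more) by log2 ratio of Kai1-/- to WT, in bins of 0.25, with the 9 genes kept drawn as labelled lines whose height has no meaning. The solid line marks the median of all genes, 0.08, and the dotted lines 2-fold; 51 genes outside the range from -4 to 4 are not drawn.

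Genes that act beside laminin in the basement membrane were taken from lists compiled from general knowledge. Counts and medians of this and the following lists are given as deposited only. Over all 10068 genes kept, 7.81% were lower and 7.98% higher by more than 2-fold, with a median log2 ratio of 0.08. That background depends on the scaling, with a median of -0.41 when scaled to Gapdh. Of 8 basement membrane collagen genes, 6 were kept, 1 was more than 2-fold lower, 1 more than 2-fold higher and 4 within 2-fold, with a median log2 ratio of -0.26. Col4a2 and Col4a1, which form the common type IV collagen network, had an RPKM of 173 and 151 in WT and of 118 and 125 in Kai1-/- PCs, log2 ratios of -0.54 and -0.27. Col4a6, an X-linked chain found in smooth muscle basement membranes, was higher in Kai1-/- PCs, at 5.55 in WT and 16.4 in Kai1-/- PCs, for a log2 ratio of 1.55. Its neighbour and partner Col4a5 was at 15.3 and 16.9. Col18a1, the source of endostatin, was lower, at 4.39 and 2.06.

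Of 13 other basement membrane proteins, 7 were kept, of which 2 were more than 2-fold lower, 0 more than 2-fold higher and 5 within 2-fold, with a median log2 ratio of -0.62. Ntn4 encodes netrin-4, a laminin-related protein that binds the Lamc1 chain and disrupts laminin networks. Its RPKM was 3.96 in WT and 0.542 in Kai1-/- PCs, for a log2 ratio of -2.66. Npnt encodes the integrin ligand nephronectin, and its RPKM was 43.7 and 9.44, a log2 ratio of -2.20. The most abundant gene of this list, the collagen-binding matricellular gene Sparc, was at 2261 and 1265, a log2 ratio of -0.84.

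Of 8 laminin receptor genes, 5 were kept, of which 1 was more than 2-fold lower and 4 within 2-fold, with a median log2 ratio of -0.52. Bcam, a receptor for the Lama5 chain, was the lower one, with an RPKM of 9.35 in WT and 4.17 in Kai1-/- PCs, for a log2 ratio of -1.15. Dag1, which encodes dystroglycan, was at 32.4 and 22.0, and Itgb1, the shared beta subunit of most laminin-binding integrins, at 273 and 207. The alpha subunits on this list were scarce in these cells, and other alpha subunits were not looked up. Itga3 was at 1.44 and 0.973, Itga6 at 0.809 and 0.299, and Itga7 at 0.689 and 0.715. The hemidesmosome subunit Itgb4 was at 0.308 and 0.348. Cd151, the tetraspanin partner of laminin-binding integrins, was at 238 and 267, a log2 ratio of 0.17.

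**Figure D4:**
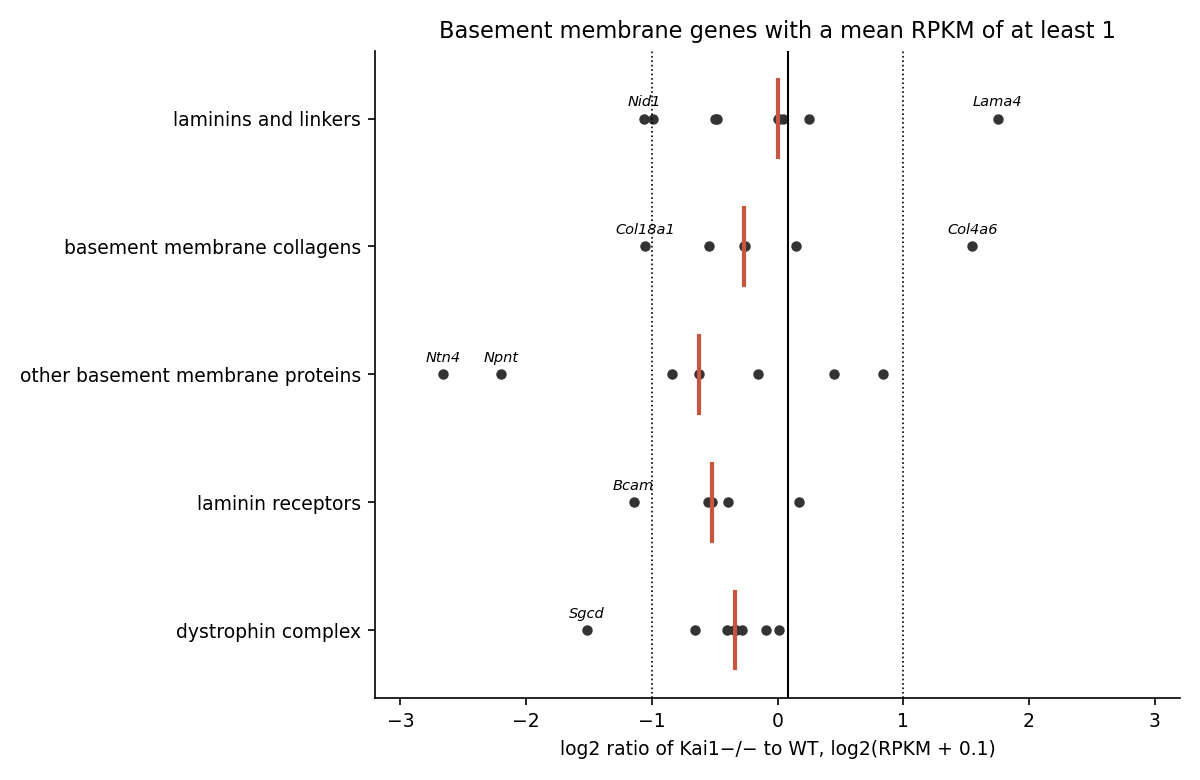
Log2 ratio of Kai1-/- to WT for the kept genes of each list (mean RPKM of 1 or more), as black points, with the list's median as a short red bar. The solid line marks the median of all genes, 0.08, the dotted lines 2-fold, and genes past 2-fold are named, among them Ntn4 at -2.66 and Lama4 at 1.75.

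The cells were checked against markers of mural cells and of other types that an aortic culture could hold. Acta2 was at an RPKM of 3823 in WT and 2580 in Kai1-/- PCs, and Pdgfrb at 44.7 and 31.6. The pericyte markers Rgs5, Kcnj8 and Abcc9 were below 1 in both. Of these, Kcnj8 was listed at 0 in WT and was at 0.791 in Kai1-/- PCs, Rgs5 was at 0.0630 and 0.233, and Abcc9 was at 0.0411 and 0.0303. Of 13 mural markers, 7 were kept, of which 4 (Tagln, Myh11, Cnn1 and Mcam) were more than 2-fold lower and 0 higher, with a median log2 ratio of -1.04. Over all genes kept, 7.81% were lower and 7.98% higher by more than 2-fold as deposited, with a median of 0.08. Their summed RPKM was 4646 in WT and 2978 in Kai1-/- PCs. Mcam, a marker of mural and endothelial cells whose product is a receptor for the Lama4 chain, was at 4.90 and 0.264, a log2 ratio of -3.78, opposite in direction to Lama4.

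Of 9 fibroblast markers, 8 were kept, with 5 more than 2-fold lower (Pdgfra, Col1a2, Dpt, Pi16 and Ly6a) and 0 higher, against 7.81% and 7.98% of all genes kept. Ly6a, the most abundant of them, was at 1354 in WT and 569 in Kai1-/- PCs. Thy1 was the 1 kept marker of the list with a ratio above 0, at 324 and 380. The list had a summed RPKM of 3443 in WT and 1870 in Kai1-/- PCs. Of 12 endothelial markers, 11 were below 1 in both libraries, and Egfl7 was at 2.28 and 7.39. Cdh5, Pecam1, Kdr, Tek and Erg were at 0.413 or less in WT and listed at 0 in Kai1-/- PCs, and the list summed to 3.58 and 7.39. Of 9 macrophage markers, 6 were below 1 in both, while Csf1r was at 11.7 and 2.66 and Lyz2 at 3.44 and 1.09, and the list summed to 17.1 and 4.35. Of 9 epithelial markers, 8 were below 1 in both, and Krt19 was at 29.3 and 91.3. Epcam, Krt5 and Cldn4 were listed at 0 in both, and the list summed to 30.1 and 92.4. Of 5 Schwann cell markers, 4 were below 1 in both, and S100b was at 13.7 and 3.18, in a sum of 14.0 and 3.26. The part of these shifts in the values of Lama4, Nid1 and Lamb2 was not tested, and in bulk RNA fewer cells of a type and less RNA per cell cannot be told apart.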

How the data were processed

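RNA of aortic PCs from WT and Kai1-/- mice was sequenced by the study, 1 library per genotype. Reads were mapped by the authors with TopHat 2.0.9, running Bowtie, on mm9, and the deposited RPKM values cover RefSeq genes, 1 value per gene and library. The labels also name Cufflinks, and the fold tests of the study used Cuffdiff. Strand setting, depth and any scaling between the libraries are not given in the sources used here. The tables hold 20462 rows, of which 38 lack a symbol and were not used. Values of 153 symbols found on several rows were averaged.

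Ratios were log2((RPKM + 0.1)/(RPKM + 0.1)), which understates changes of low genes, and a gene was kept if its mean RPKM was 1 or more. Reads were estimated after the data were seen, from genes with 1 annotated transcript of over 800 bases and a fragment of 200 bases. Of a range of trial depths, the one with the largest share of low values within 0.15 of a whole read was taken. This share was 81.3% (WT) and 80.4% (Kai1-/-), against 30% without steps at a single fixed depth. Being the quantity maximised, it is no independent check of the depth. Reads of a gene used its longest GENCODE M1 transcript (NCBI37) and are approximate. The ratio script was checked on simulated data.

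The genes and lists were chosen with earlier results of these data known. All 10 genes, the laminin chains and laminin receptors were named, and of other lists the most abundant gene and those past 2-fold. Further markers, and Dmd, Utrn, Col4a1 and Col4a5, were named after their values were seen. Some items that these rules would name, and the results that need them, are not reported here. Gamma chains were translated from GENCODE M1 and aligned pairwise with Biopython. Alternatives were other pseudocounts, scalings and filters, and summed symbols. Python 3.11.15, numpy 2.4.6, pandas 2.3.3, scipy 1.17.1 and matplotlib 3.10.9 were used.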

Additional observations from a re-analysis of the deposited data

How the results depend on the processing

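Of 72 recomputed log2 ratios of the 9 genes with a counting interval, 37 moved by less than that interval and 35 by more. The 37 include the ratio of each gene with repeated symbols summed, which could not move. A scaling shifts all well-measured genes by nearly the same amount, so passing the interval there depends mostly on its width, and thus on read number. Lama3 is left out, since a ratio against a listed 0 is set by the pseudocount. Changes of sign were 17, all under other scalings, in Agrn, Hspg2, Lama5 and Lamc1, and Lama4 and Nid1 kept both direction and the 2-fold call in every setting. Scaling to equal RPKM sums, to Gapdh, to equal sums without ribosomal protein genes and to an equal upper quartile moved the median of all genes kept from 0.08 to -0.39, -0.41, -0.11 and -0.04. Under each of these and under a median of 0, 2 of the 9 genes kept were more than 2-fold lower, Nid1 and Lamb2. The median of the genes was -0.47 with equal sums, -0.48 with Gapdh, -0.19 without ribosomal protein genes, -0.19 with no filter and -0.24 at a mean RPKM of at least 5. Over all genes, 1816 were lower and 286 higher with equal sums, 1856 and 278 with Gapdh, 1878 and 1205 with no filter, 350 and 511 at a mean RPKM of at least 5, 1093 and 511 without ribosomal protein genes, 977 and 594 with an equal upper quartile, and 908 and 656 with a median of 0. These follow from the scalings and from the number of genes kept, which was 20211 with no filter, 6518 at a mean RPKM of at least 5 and 10068 in every other setting. Summing repeated symbols changed no ratio of the 10 genes, none of which is repeated. No paired analysis was possible because a genotype was measured in 1 library, and for the same reason none could be left out. Depth limited Lama3, Lama1 and Lamc3, with fewer than 20 estimated reads in either library.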

Other observations

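The dystrophin complex ties dystroglycan, and through it laminin, to the actin cytoskeleton. Of 13 genes of this complex, 8 were kept, of which 1 was more than 2-fold lower, 0 more than 2-fold higher and 7 within 2-fold, with a median log2 ratio of -0.34. Over all genes kept, 7.81% were lower and 7.98% higher by as much, with a median of 0.08. The delta-sarcoglycan gene Sgcd was the lower one, with an RPKM of 10.7 in WT and 3.66 in Kai1-/- PCs, for a log2 ratio of -1.52. Dystrophin itself, Dmd, was at 0.388 and 0.134, while its widely expressed relative Utrn was at 3.59 and 2.84.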
